A study of Mus musculus with 10 samples.

Results

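The colony-stimulating factors and their receptors were examined in the brains of mice with skin inflammation. The set held 10 genes of 19938 with a probeset of their own on the array. They were taken by symbol as the ligand genes Csf1, Il34, Csf2 and Csf3 and the receptor genes Csf1r, Csf2ra, Csf2rb, Csf2rb2, Csf3r and Flt3. Each of the 10 had exactly 1 probeset, and none of these was shared with another gene. Expression was measured on Affymetrix GeneChip Mouse Gene 1.0 ST arrays in RNA from perfused whole brains of female C57BL/6 mice aged 6 to 8 weeks, with 1 array per mouse. The 5 Aldara-treated mice received 80 mg of Aldara cream, which carries the TLR7 ligand imiquimod, on shaved dorsal skin every 24 h for 5 applications. The 5 control mice received aqueous control cream on the same schedule. Perfusion limits blood in the tissue but leaves leukocytes that have entered it, and the control cream lacks isostearic acid, a part of the base of Aldara, as well as imiquimod. Values are log2 expression values from robust multi-array averaging (RMA), and a log2 fold change is the difference of group means, given with its standard error (SE).

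Colony-stimulating factors are secreted proteins that keep myeloid cells alive and drive their growth and maturation. CSF1 and IL-34 bind the same receptor kinase, CSF1R, on which microglia, the resident macrophages of the brain, depend for survival. In the healthy brain IL-34 comes mainly from neurons and CSF1 mainly from glia. GM-CSF, encoded by Csf2, signals through an alpha chain (Csf2ra) and a beta chain (Csf2rb) that the receptors for IL-3 and IL-5 share. Mice carry a second beta chain gene, Csf2rb2, whose product serves IL-3. G-CSF, encoded by Csf3, drives neutrophil production through CSF3R, which monocytes carry too. FLT3 is a kinase related to CSF1R that is used by early blood progenitors and dendritic cells.

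Of the 6 receptor genes, all but Flt3 rose in Aldara-treated mice, and of the 4 ligand genes Csf1 did. Receptor genes were not tested against ligand genes as groups. At an adjusted p under 0.05 from limma, 6 of the 10 genes were higher, namely Csf3r, Csf1r, Csf2rb, Csf2rb2, Csf1 and Csf2ra, against 12.4% of all probesets tested. The genes called lower were Il34 and Csf2, which is 2 of 10, near the 21.0% of all probesets called lower. Csf3 and Flt3 did not pass. For 5 of the 10 genes every Aldara-treated mouse lay above every control mouse, against 10.5% of all probesets. These 5 were among the 6 genes called higher, so the separation is no support apart from the calls. Both lower genes also separated the groups, which is again 2 of 10, near the 15.3% of all probesets in that direction. The median log2 fold change was 0.63 over the 6 receptor genes and -0.13 over the 4 ligand genes, beside -0.041 over all probesets tested. The ligand median rests on Csf2 and Csf3. Whether their dim probesets stood above background is unknown.

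**Figure D1:**
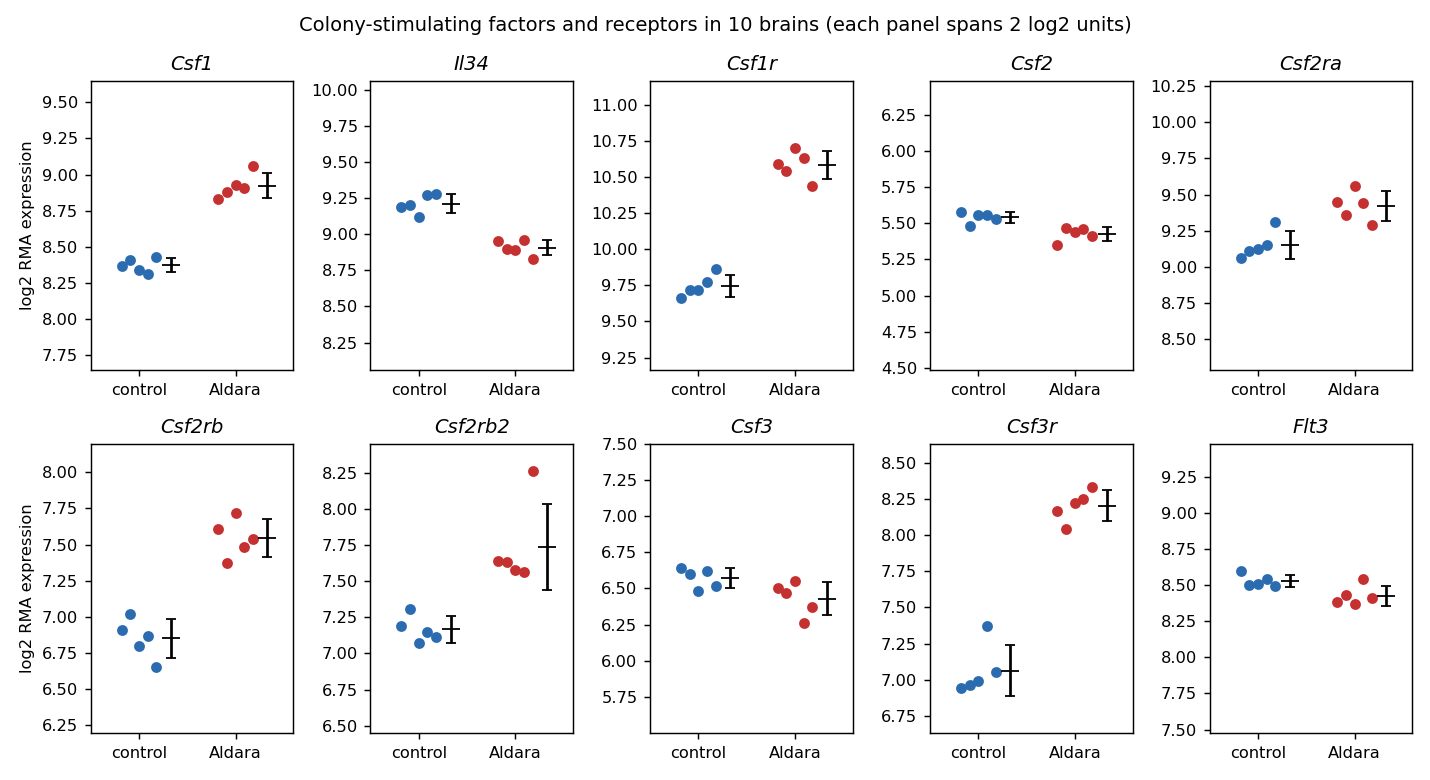
Log2 RMA expression of the 10 genes in each of 5 control brains (blue) and 5 Aldara brains (red), in replicate order within a group, with black bars for the group mean and SD. Each panel spans 2 log2 units, so the distance between groups can be compared across panels. Csf3r and Csf1r show the widest gaps, Il34 lies lower in every Aldara brain, and Aldara replicate 5 stands apart for Csf2rb2 at 8.26.

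The ligands of CSF1R changed in opposite directions. Csf1, the macrophage growth factor gene, had log2 values of 8.37, 8.41, 8.34, 8.31 and 8.43 in control mice 1 to 5 and of 8.83, 8.88, 8.93, 8.91 and 9.06 in Aldara-treated mice 1 to 5. The groups did not overlap and were 0.40 apart. The increase was 1.46-fold (95% interval 1.37 to 1.56), or a log2 fold change of 0.55 (SE 0.043, adjusted p = 1.5e-06 from limma). Il34 had log2 values of 9.19, 9.20, 9.12, 9.27 and 9.28 in control mice and of 8.95, 8.90, 8.89, 8.96 and 8.83 in Aldara-treated mice. Every treated mouse lay below every control mouse, with a gap of 0.16. Its log2 fold change was -0.31 (SE 0.038, adjusted p = 6.8e-05), which is 19.3% lower. By size of decrease Il34 ranked 221st of 19938 genes, while Csf1 ranked 654th by size of increase.

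The size of the divergence of Csf1 and Il34 was measured within each array. The log2 value of Csf1 minus that of Il34 was -0.84 ± 0.072 (SD, n = 5) in control mice and 0.015 ± 0.13 (SD, n = 5) in Aldara-treated mice. The control mice ran from -0.96 to -0.78 and the treated mice from -0.13 to 0.23, so the groups did not overlap. The shift of 0.86 on the log2 scale (95% interval 0.72 to 1.02) is a 1.81-fold change of Csf1 relative to Il34 (exact two-sided permutation test over 252 relabelings, p = 0.0079, adjusted p = 0.0079 over 3 pairs of genes). That is the smallest p that 5 mice against 5 allow. Since Csf1 was higher and Il34 lower in every treated mouse, the difference had to separate the groups. The p thus adds nothing to the separate changes, and the shift gives only their combined size. Probes differ in brightness, so the sign of the difference within 1 array does not say which transcript was more abundant.

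Csf1r, the receptor gene of both ligands, was higher in every Aldara-treated mouse. It had log2 values of 9.66, 9.72, 9.72, 9.77 and 9.86 in control mice 1 to 5 and of 10.59, 10.54, 10.70, 10.63 and 10.44 in Aldara-treated mice 1 to 5. All treated mice stood at least 0.58 above all control mice. The increase was 1.79-fold (95% interval 1.65 to 1.93), or a log2 fold change of 0.84 (SE 0.051, adjusted p = 1.7e-07 from limma). Aldara replicate 5 had the highest value of Csf1 and the lowest of Csf1r among the treated mice.

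**Figure D2:**
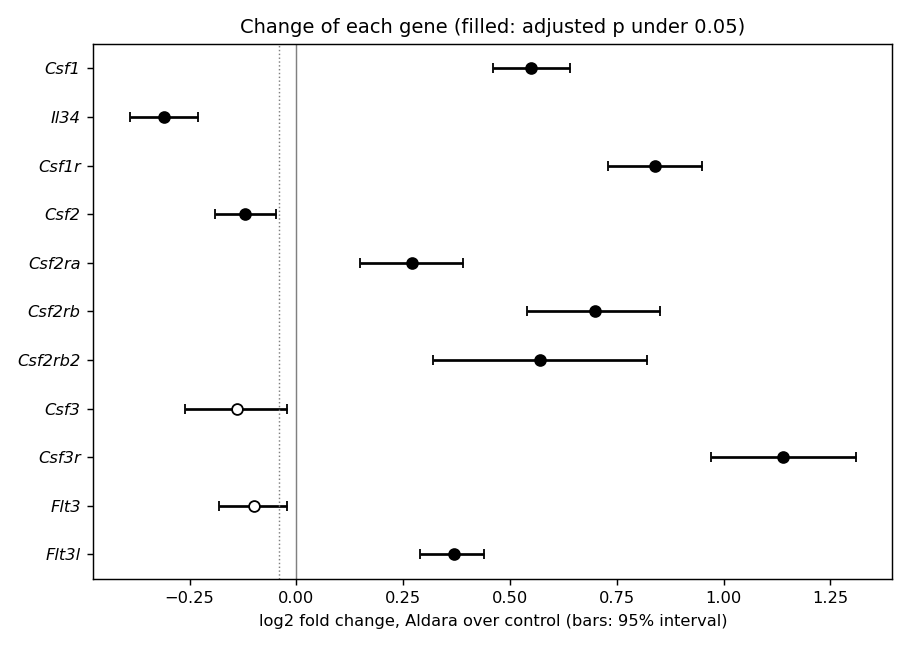
Log2 fold change of each gene in Aldara-treated over control mice, with its 95% interval from limma (5 mice per group); filled points passed at an adjusted p under 0.05, and the dotted line marks the median of all probesets tested, -0.041. The receptor genes except Flt3 lie to the right of 0, Il34 lies furthest to the left at -0.31, and Flt3l, the ligand gene of FLT3, is added below the members at 0.37.

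For GM-CSF the receptor chains were higher and the ligand gene was not. Csf2 had log2 values of 5.58, 5.48, 5.56, 5.56 and 5.53 in control mice and of 5.35, 5.47, 5.44, 5.46 and 5.41 in Aldara-treated mice. The groups were separated by only 0.0049, and the log2 fold change was -0.12 (SE 0.032, adjusted p = 0.014 from limma), or 7.77% lower. This call was lost when the Aldara arrays were shifted to a median difference of 0 (log2 fold change -0.075, adjusted p = 0.10). Whether so dim a probeset stood above background is unknown, since RMA values carry no detection call.

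Csf2ra, the ligand-binding alpha chain, had log2 values of 9.06, 9.11, 9.12, 9.15 and 9.31 in control mice 1 to 5 and of 9.45, 9.36, 9.56, 9.44 and 9.29 in Aldara-treated mice 1 to 5. Control replicate 5 and Aldara replicate 5 overlapped. Its log2 fold change of 0.27 (SE 0.056, adjusted p = 0.0029) corresponds to a 1.21-fold increase. Csf2rb, the signalling beta chain, ran from 6.91, 7.02, 6.80, 6.87 and 6.65 in control mice to 7.61, 7.37, 7.72, 7.48 and 7.54 in Aldara-treated mice. The groups were 0.36 apart, and the increase was 1.62-fold (95% interval 1.45 to 1.81), or a log2 fold change of 0.70 (SE 0.073, adjusted p = 1.8e-05). Within each array, Csf2rb minus Csf2ra moved from -2.30 ± 0.22 (SD, n = 5) to -1.88 ± 0.094 (SD, n = 5), a shift of 0.43 on the log2 scale (95% interval 0.21 to 0.69, exact two-sided permutation test, p = 0.0079, adjusted p = 0.0079 over 3 pairs). The beta chain gene thus rose more than the alpha chain gene in these arrays.

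Csf2rb2, the IL-3 beta chain gene that lies beside Csf2rb on the chromosome, was also higher. Its log2 values were 7.19, 7.31, 7.07, 7.15 and 7.11 in control mice and 7.64, 7.63, 7.58, 7.56 and 8.26 in Aldara-treated mice. Aldara replicate 5 was 0.62 above the next treated mouse, which was not so for Csf2rb. The log2 fold change was 0.57 (SE 0.12, adjusted p = 0.0025 from limma) with all mice and 0.44 without Aldara replicate 5, where the call held. Csf2rb and Csf2rb2 are closely related in sequence, so a contribution of one transcript to the other's probes is possible and was not tested. Of their ligand's side, Il3 did not pass, with a log2 difference of -0.013 (SE 0.030, adjusted p = 0.78).

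The G-CSF receptor gene had the largest increase of the set, while its ligand gene did not pass. Csf3r had log2 values of 6.94, 6.96, 6.99, 7.37 and 7.05 in control mice 1 to 5 and of 8.17, 8.04, 8.22, 8.25 and 8.33 in Aldara-treated mice 1 to 5. Control replicate 4 was the highest control mouse and still lay 0.68 below the lowest treated mouse. The increase was 2.20-fold (95% interval 1.96 to 2.48), or a log2 fold change of 1.14 (SE 0.078, adjusted p = 4.8e-07 from limma). Csf3 had log2 values of 6.48 to 6.64 in control mice and of 6.26 to 6.55 in Aldara-treated mice. These ranges overlapped, and Csf3 did not pass, with a log2 difference of -0.14 (SE 0.054, adjusted p = 0.068). As for Csf2, whether this dim probeset stood above background is unknown. It passed as lower after centring all arrays on one median (-0.19), with quantile normalisation (-0.13) and without Aldara replicate 3 (-0.17).

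Csf3r is often read as a neutrophil gene, so neutrophil markers were set beside it. Of 12 measured neutrophil markers, such as the calprotectin subunit S100a9 at a log2 difference of 0.037 (SE 0.042) and the granule protein Ngp at 0.097 (SE 0.037), none passed in limma, with 1 higher and 2 lower at an unadjusted p under 0.05, and 1 lower by the methods' t-test. With other scalings 3 markers were higher when the Aldara arrays were shifted to a median difference of 0, 2 were higher with quantile normalisation and 2 were lower after centring all arrays on one median. With array weights, with the replicate number as a block or without Aldara replicate 5, 1 was higher. The mean log2 value over the list was 6.11 to 6.17 in control mice and 6.13 to 6.20 in Aldara-treated mice. As for Csf2 and Csf3, whether probesets this dim stood above background is unknown. They may thus be unable to show a change. Of 12 measured markers of monocytes and macrophages, 10 were higher, and the list mean went from 6.50 to 6.58 in control mice to 8.20 to 8.53 in Aldara-treated mice. Lyz2, the lysozyme gene of these cells, rose by 3.62 on the log2 scale (SE 0.088), Adgre1, which encodes the macrophage antigen F4/80, by 3.66 (SE 0.091) and Ms4a7 by 4.04 (SE 0.11). Cd163, a scavenger receptor of resident macrophages, was the 1 lower marker, at -0.20 (SE 0.042), and 2 were lower after centring or without Aldara replicate 4. Markers of monocytes and macrophages thus moved with Csf3r, Csf1r and the beta chain genes, and their part in these increases was not tested. In whole-brain RNA, a change in the number of cells of a type and a change of RNA per cell cannot be told apart.

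**Figure D3:**
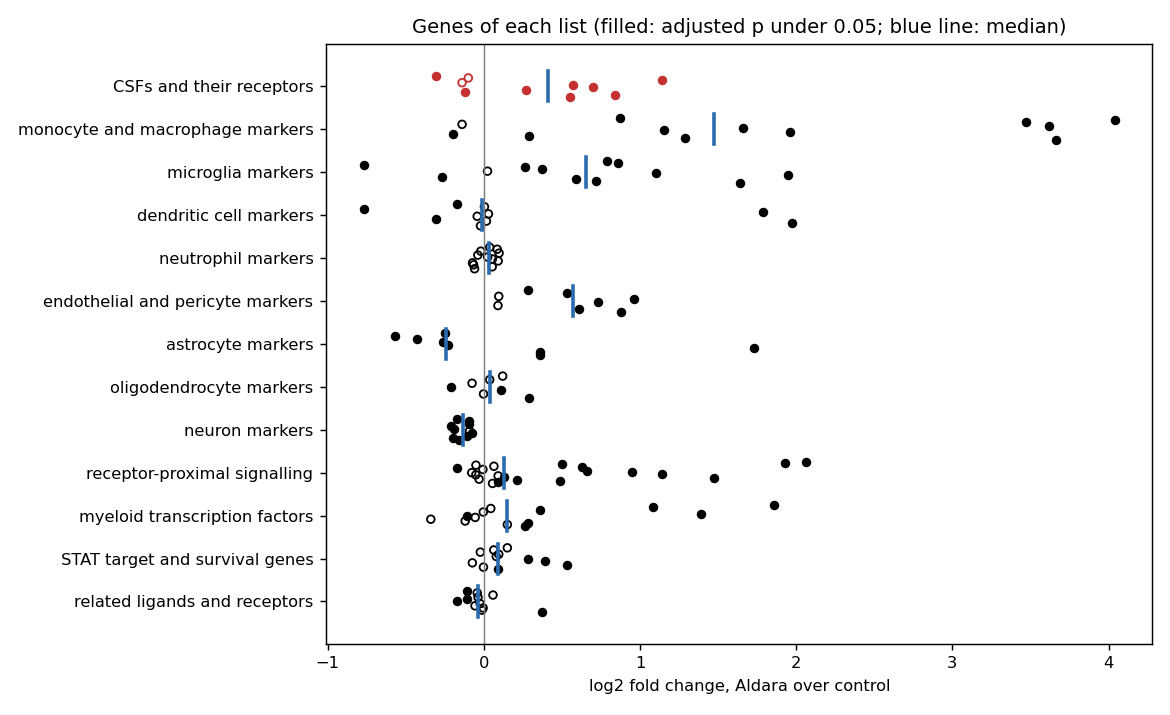
Log2 fold change, Aldara over control, of the 10 genes of the set (red) and of the genes of 12 lists (black), 1 point per gene; filled points passed at an adjusted p under 0.05 and blue lines give the median of each list. Neutrophil markers cluster at 0 with a median of 0.031, while monocyte and macrophage markers have a median of 1.47 and microglia markers one of 0.65.

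Csf1r is also a gene of microglia, and most of their markers were higher. Of 12 measured microglia markers, 9 were higher, against 12.4% of all probesets tested, and 2 were lower, near the 21.0% of all. Their median log2 fold change was 0.65, beside 0.84 for Csf1r. The list mean was 8.36 to 8.49 in control mice and 8.86 to 9.14 in Aldara-treated mice. Itgam, the CD11b integrin that monocytes share, rose by 1.95 on the log2 scale (SE 0.086), Olfml3, a secreted microglial protein, by 1.10 (SE 0.057) and Trem2, a lipid receptor, by 0.79 (SE 0.054). The lower ones were Siglech, a sialic acid lectin, at -0.77 (SE 0.072), and the orphan receptor gene Gpr34, at -0.27 (SE 0.030). P2ry12, a purine receptor of resting microglia, did not pass, at 0.023 (SE 0.041).

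Flt3 and its ligand differed in whether they passed. Flt3 had log2 values of 8.60, 8.50, 8.51, 8.54 and 8.49 in control mice and of 8.38, 8.43, 8.37, 8.54 and 8.41 in Aldara-treated mice, so Aldara replicate 4 lay among the control mice. Its log2 difference was -0.10 (SE 0.037) and just missed the threshold (adjusted p = 0.051 from limma). It passed as lower with the arrays centred (-0.15), with quantile normalisation (-0.13) and without Aldara replicate 4 (-0.13). Flt3l, which is no member of the set but encodes the ligand of FLT3, was higher, with log2 values of 8.43 to 8.55 in control mice and 8.78 to 8.91 in Aldara-treated mice and a log2 fold change of 0.37 (SE 0.035, adjusted p = 9.1e-06). Within each array, Csf1r minus Flt3 moved from 1.22 ± 0.11 (SD, n = 5) to 2.16 ± 0.12 (SD, n = 5), a shift of 0.94 on the log2 scale (95% interval 0.77 to 1.12, exact two-sided permutation test, p = 0.0079, adjusted p = 0.0079 over 3 pairs). The gap of Csf1r between groups, 0.58, exceeded the spread of Flt3 over all mice, 8.37 to 8.60. This difference therefore had to separate the groups too, and its p adds nothing to the change of Csf1r. Of 10 measured dendritic cell markers, 2 were higher, the integrin gene Itgax at 1.79 (SE 0.13) and the interferon-induced gene Bst2 at 1.97 (SE 0.17), which macrophages express too. The 3 lower markers were Siglech, Cd209a and Zbtb46, at -0.77, -0.31 and -0.17. Both counts are near the 12.4% higher and 21.0% lower of all probesets tested. Xcr1 and Clec9a, which define a class of dendritic cells, did not pass, at 0.0033 and 0.029. Whether the dim probeset of Clec9a, with a control mean of 5.66, stood above background is unknown.

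**Figure D4:**
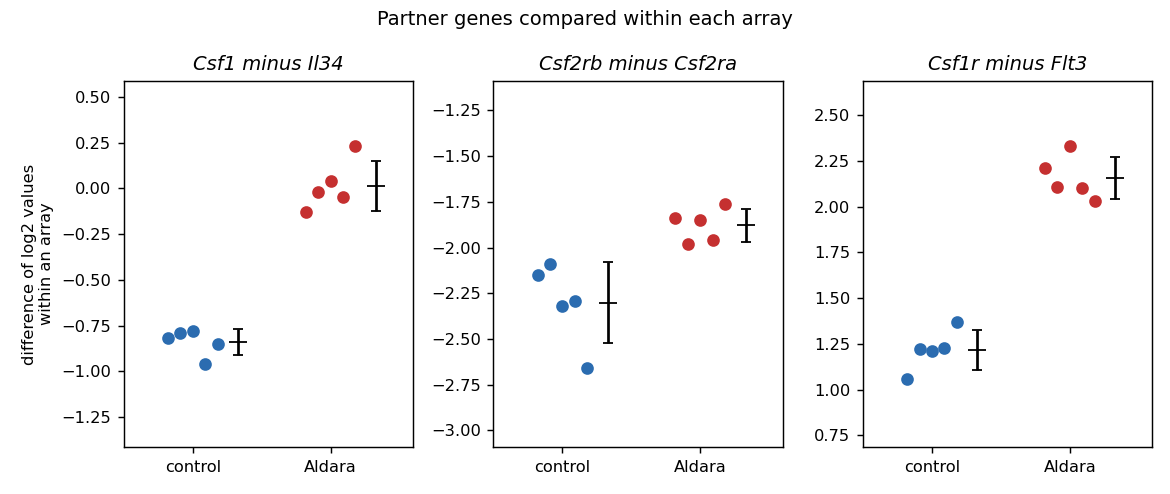
Difference of log2 values between partner genes within each array, for 5 control (blue) and 5 Aldara (red) brains, with black bars for the group mean and SD and 2 log2 units per panel. In each panel all Aldara brains lie above all control brains, and the shift is 0.86 for Csf1 minus Il34, 0.43 for Csf2rb minus Csf2ra and 0.94 for Csf1r minus Flt3.

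Related ligands and receptors were called about as often as any probeset, beside 12.4% higher and 21.0% lower over all tested. Of 11 such genes measured, Flt3l alone was higher and 3 were lower, the stem cell factor receptor gene Kit at -0.17 (SE 0.030), its ligand gene Kitl at -0.11 (SE 0.033) and Sdc1, which encodes a proteoglycan that binds IL-34, at -0.11 (SE 0.031). Once the median difference between groups was set to 0, the count of lower genes was 1. The other alpha chain genes of the family, Il3ra and Il5ra, did not pass, at log2 differences of -0.005 and -0.024. Neither did Pdgfra and Pdgfrb, kinases of the same class as CSF1R and FLT3, at -0.038 and 0.058. Ptprz1, a phosphatase that also binds IL-34, did not pass either, at -0.043.

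Downstream of the receptors, 12 of 21 measured genes of proximal signalling were higher and Src alone was lower, at -0.17 (SE 0.030). The count of lower genes was 3 after centring all arrays on one median, and 2 with quantile normalisation, array weights, the methods' t-test, the trended robust prior, only probesets above the median level or without Aldara replicate 5. The count of higher genes was 7 among probesets above the median level and 10 to 12 without each array in turn. It was 14 once the median difference between groups was set to 0. Tyrobp, an adapter that myeloid receptors use and that takes part in CSF1R signalling, rose by 1.93 on the log2 scale (SE 0.039, adjusted p = 1.6e-11 from limma). Vav1, an exchange factor of blood cells, rose by 2.06 (SE 0.085), and Inpp5d, a lipid phosphatase that restrains growth factor signals, by 1.47 (SE 0.064). Of the signal transducers that these receptors activate, Stat3 rose by 0.63 (SE 0.037), while Stat5a and Stat5b did not pass, at 0.064 and -0.051. Jak2, the kinase bound to the beta chain, rose by 0.13 (SE 0.047, adjusted p = 0.048), near the threshold. Its groups overlapped, with 9.45 to 9.68 in control mice and 9.66 to 9.81 in Aldara-treated mice.
Of 11 measured target and survival genes of the STAT pathway, 4 were higher, the cyclin gene Ccnd1 at 0.53, the survival gene Mcl1 at 0.39, Myc at 0.28 and Bcl2 at 0.091. None was lower in limma (0 by the methods' t-test and 1 at an unadjusted p under 0.05, while 1 passed as lower with the arrays centred or quantile-normalised or without Aldara replicate 2). The count of higher genes was 6 once the median difference between groups was set to 0. It was 3 after centring all arrays on one median and 3 to 4 without each array in turn. Bcl2 overlapped between the groups and passed narrowly (adjusted p = 0.046 from limma). The feedback genes Cish, Socs1, Socs2 and Socs3, which these cytokines induce through STAT factors, did not pass, at -0.074, -0.023, 0.063 and 0.15.

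Among myeloid transcription factors, 6 of 13 measured genes were higher and Irf4 alone was lower, at -0.11. The count of lower genes was 3 after centring all arrays on one median or with quantile normalisation, 2 when only probesets with 1 symbol were tested and without control replicate 4, control replicate 5 or Aldara replicate 1, and 0 once the median difference between groups was set to 0 or only probesets above the median level were tested. The count of higher genes was 3 among probesets above the median level. Spi1, which encodes PU.1, a factor that drives many myeloid receptor genes, had log2 values of 7.18 to 7.45 in control mice and 8.96 to 9.45 in Aldara-treated mice, and rose by 1.86 on the log2 scale (SE 0.084, adjusted p = 1.1e-08 from limma). Irf8, which directs monocyte and microglia development, rose by 1.39 (SE 0.064) and Runx1 by 1.08 (SE 0.051). Cebpe and Gfi1, factors of the neutrophil lineage, did not pass, at -0.12 and -0.056. Cebpe just missed the threshold (adjusted p = 0.051 from limma), while Gfi1 was far from it (adjusted p = 0.53).

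Since Spi1 rose with several receptor genes, the bases before their transcription starts were searched for the core that PU.1 binds, GAGGAA, on both strands. The RefSeq promoter table of build GRCm38.p6 held 6 of the 10 genes, each searched over the 250 bases before the start. The core was found for 3 of them, Csf2ra, Csf2rb2 and Csf3r, all of them genes that rose, and for 23.1% of 27025 promoters of the same length. It was not found in the windows of Csf1, which rose too, or of Csf2 and Flt3. Csf1r and Csf2rb, which also rose, were not in the promoter table. A link between the core and the increases was not tested. The stretches that hold the matches are given here, because these genes rose with Spi1, with the core in capitals on either strand and, for Csf2rb2, also the STAT element TTCNNNGAA, which 7.18% of all promoters hold. An interferon response core, GAAANNGAA, was found only for Csf2 among the 6, and in 7.16% of all promoters. These matches are a description of the letters and no evidence of binding.
Csf3r, chr4:126024561-126024590, plus strand: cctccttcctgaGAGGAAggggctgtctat
Csf2ra, chr19:61228419-61228448, minus strand: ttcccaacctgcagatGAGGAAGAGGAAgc
Csf2rb2, chr15:78305722-78305971, minus strand: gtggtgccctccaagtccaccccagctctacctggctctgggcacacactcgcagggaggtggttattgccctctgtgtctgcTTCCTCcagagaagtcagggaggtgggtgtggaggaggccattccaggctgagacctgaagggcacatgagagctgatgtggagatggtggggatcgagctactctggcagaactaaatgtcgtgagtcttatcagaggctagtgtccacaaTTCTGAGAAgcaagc
The match of Csf3r lies 86 bases before the start and the cores of Csf2ra 14 and 8 bases before it. Both of these stretches lie within the span that the same annotation gives the gene, which has a further start upstream. For Csf2rb2 the PU.1 core lies on the opposite strand, 167 bases before the start, and the STAT element 15 bases before it.

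Cell types that make the ligands were checked in the same way. Of 10 measured neuron markers, 9 were lower and none was higher in limma or by the methods' t-test (0 at an unadjusted p under 0.05), with a median log2 fold change of -0.14 beside -0.31 for Il34, and 5 were lower after the same shift. Rbfox3, a marker of neuronal nuclei, was at -0.19 (SE 0.030), and Slc17a7, a glutamate transporter, at -0.21 (SE 0.034). The list mean was 12.04 to 12.08 in control mice and 11.91 to 11.93 in Aldara-treated mice. Of 8 astrocyte markers, Gfap, Aqp4 and Aldh1l1 were higher, Gfap by 1.73 on the log2 scale (SE 0.040), and 5 were lower, such as the glutamate transporter gene Slc1a2 at -0.57 (SE 0.036). Of 7 measured oligodendrocyte markers, Cldn11 and Mag were higher and Mbp was lower, at 0.29, 0.11 and -0.21, and 2 were lower after centring or without Aldara replicate 1. Of 8 markers of endothelium and pericytes, 6 were higher, such as Pecam1 at 0.96 (SE 0.049), and none was lower in limma, by the methods' t-test or at an unadjusted p under 0.05 (0 in each). The part of these changes in those of Il34 and Csf1 was not tested.

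Genes whose profile over the 10 arrays lay nearest to each called member were found by the root mean square distance between log2 differences from the control mean. Nearest to Csf1 were Lamp2, a lysosomal membrane protein gene, Hspb6 and Plekhf2, at distances of 0.051, 0.052 and 0.061. Nearest to Il34 were the neuronal kinase genes Brsk1 and Pnck and the axon guidance receptor gene Dcc, at 0.034, 0.035 and 0.040. Nearest to Csf1r were the TGF-beta receptor gene Tgfbr2, Pon3 and the interferon gamma receptor gene Ifngr1, at 0.042, 0.064 and 0.066. For Csf2rb they were Nfam1, an immune receptor gene, the lysosomal enzyme gene Gusb and Ube2c, at 0.059, 0.088 and 0.094, and for Csf2rb2 Gimap6, Treml2 and Znfx1, at 0.078, 0.088 and 0.099. For Csf3r they were the TNF receptor gene Tnfrsf1b, the inhibitory receptor gene Pirb and Runx1, at 0.10, 0.11 and 0.11. For Csf2ra they were Abcb1a, Eogt and Pabpc1, at 0.053 to 0.060, and for Csf2 Sidt1, Pllp and Limk2, at 0.021 to 0.023. The measure reflects mostly the size of the change between groups.

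The arrays were alike within each group, and the groups differed in their medians and correlations. Between control arrays the correlation across the probesets tested was 0.998 to 0.999, between Aldara arrays 0.995 to 0.999 and between groups 0.980 to 0.988. The median log2 value was 8.10 to 8.14 on control arrays and 8.16 to 8.19 on Aldara arrays. Every Aldara array thus had a higher median than every control array. The median log2 fold change of all probesets tested, -0.041, had the opposite sign. Aldara replicate 5 stood apart from the other treated mice in several list genes. It was higher for Ccr2 (7.47, next 6.86) and Plac8 (7.71, next 6.65). It was lower for Cx3cr1 (9.75, next 10.02) and Fcrls (8.17, next 8.94). In other list genes, such as Tyrobp, it lay within their range. The sources used here gave neither scan dates nor batches, and the number of arrays limits the precision.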

How the data were processed

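Whole-brain RNA of 10 mice was measured, 5 per group, with 1 array each. The authors summarised the probes by RMA in GeneSpring GX, whose version is not given in the sources used here, and deposited log2 expression values. Symbols came from the platform annotation. Among 28856 probesets, 1 symbol was given for 21789, several for 1621 and none for 5446, so 23410 were tested. Groups came from the sample labels. The comparison used lmFit and eBayes of limma 3.58.1 in R 4.3.3 without covariates, with Benjamini-Hochberg adjustment over all probesets tested and a threshold of 0.05. Lists used the probeset with the highest mean for each gene. Of the genes listed, 135 of 145 had a probeset with 1 symbol, counting a gene once for each list. Fold differences between partner genes were compared with exact permutation tests over arrays, with 95% intervals from inverting the test. Named genes are all members, up to 3 called genes of each list with the smallest p, exceptions in small counts and the 3 nearest profiles of each called member. Further list genes, the members' neighbours and the motif matches printed were picked with their values in view. The members and lists were chosen with earlier results of these data known. The test was checked on simulated data. Alternatives were other scalings, probeset filters, a trended robust prior, array weights, the methods' t-test, a replicate block and leaving out each array.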

Additional observations from a re-analysis of the deposited data

Results flagged for a closer look

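In the 20 groups of 5 mice formed by the 10 genes, 2 single arrays stood apart by Dixon's test, where chance flags about 1 group in 20. Csf2rb2 was 8.26 in Aldara replicate 5, against 7.64 in the next treated mouse. That mouse also stood apart in list genes such as Ccr2 and Plac8, which were not part of this check. Csf3r was 7.37 in control replicate 4, against 7.05 in the next control mouse. Without that control mouse the log2 fold change of Csf3r was 1.22.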

How the results depend on the processing

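Across 20 alternatives to the limma fit, Csf1, Il34, Csf1r and Csf2ra kept their direction and their call in all 20, and Csf2rb, Csf2rb2 and Csf3r in the 19 that tested them. The count of 6 higher members fell to 3 among probesets above the median level, which tested 5 of the 10, and stayed at 6 without each array in turn. The count of 2 lower members was 4 after centring all arrays on one median, 4 with quantile normalisation, 1 once the median difference between groups was set to 0, and 2 to 3 without each array in turn. Flt3 also passed as lower when only probesets with 1 symbol or only those above the median level were tested. Of 480 recomputed counts over the lists, 441 stayed within 1.5 times the reported count. With the replicate number as a block, 7122 probesets passed in place of 7827, and no member's call changed. Same-numbered arrays correlated in their deviations at -0.11 to 0.249, and 4 of 10 arrays correlated best with their own number, so the numbers were not taken as pairs. In the paired analysis with this replicate block, the differences were 0.86 for Csf1 minus Il34, 0.43 for Csf2rb minus Csf2ra and 0.94 for Csf1r minus Flt3, with an exact p of 0.0625, the smallest that 5 pairs allow.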

Other observations

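The nearest protein-coding genes with a probeset on either side of the members on the chromosome, in the order of assembly GRCm38.p6, were read as well. Of 17 such neighbours that are no members, 2 were higher, 5 were lower and 10 did not pass in limma, near the 12.4% higher and 21.0% lower of all probesets tested. The larger increase was that of Ncf4, a subunit of the phagocyte NADPH oxidase that lies next to Csf2rb2, at a log2 fold change of 0.88 (standard error, SE, 0.080, adjusted p = 5.5e-06). With Csf2rb2 at 0.57 and Csf2rb at 0.70 it formed a run of adjacent higher genes. On the side of Csf2rb the run ended at Tex33, at -0.028 (SE 0.047), and the gene beyond Ncf4 was not read. Next to Csf3r, Mrps15 was at 0.11 (SE 0.038, adjusted p = 0.043) and Grik3 at -0.20 (SE 0.031). Csf1r lies beside Pdgfrb, at 0.058 (SE 0.038), and Csf2 beside Il3, at -0.013 (SE 0.030), neither of which passed.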
